A study of Homo sapiens with 20 samples.

Results

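Of 572000 chromatin anchor pairs listed in at least 1 of 4 glioblastoma multiforme (GBM) cell lines, 60969 (10.7%) were listed in both lines of the 42MGBA system and in neither line of the H4 system. They are called 42MGBA-system pairs below. Each pair joins 2 genomic bins, or anchors, of about 5 kb on 1 chromosome, and a pair was counted as the same pair in 2 lists only where both anchors had identical coordinates. Listing was what chose the pairs, so their listing and their strength in the 42MGBA lists are given as description. By the same rule 64555 pairs (11.3%) belonged to the H4 system, and 110313 (19.3%) were in all 4 lists.

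H4 and 42MGBA are established human GBM cell lines, each with its own endogenous truncating mutation in STAG2. In the derivatives 42MGBA 53-1 and H4 88-1 that mutation was corrected by gene editing, so each system sets a STAG2-mutant parent beside 1 corrected line. Hi-C was performed with 2 replicates per line, and the loop list of a line, its 300000 strongest anchor pairs, pools both. There is thus 1 list per line and no replicate value, no test was made, and a difference between lines or between systems cannot be told apart from a difference between these single lists. The lists hold no read counts, and the read totals of the libraries were not used here, so no strength is given with a counting error.

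Hi-C ligates DNA ends that lie close together in the nucleus, and a pair of distant bins joined more often than their separation predicts is called a loop. Many loops form when the ring-shaped cohesin complex extrudes DNA until it meets CTCF bound to motifs that point towards each other, while others join enhancers to promoters or Polycomb-bound regions to one another. STAG2 and STAG1 are alternative subunits of cohesin, and STAG2 is recurrently inactivated in GBM. The loop lists measure contact and not expression or STAG2 protein, so neither the correction of STAG2 nor the cell type can be checked in them directly.

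The 3 pairs of sites printed first are shown because these groups, among the largest or strongest of the 42MGBA system, contain pairs whose anchors face each other with the core of the CTCF motif. Such pairs were few, 2 of 214 in the SLC24A3 group, 7 of 372 in that of COPS8 and 1 of 290 in that of BCL10. Of all 42MGBA-system pairs they made up 1.02%. None of the printed pairs is the strongest of its group. The 12 letters searched on both strands were CCANNAG followed directly by NNGGC, where N is any base, and 16.1% of all 128561 listed anchors held them, as did 16.1% of the 31647 anchors of 42MGBA-system pairs. Capitals mark the motif, the other letters are its flanks of 10 bases, and each site is written 5′ to 3′ on the strand given, in genome build hg19.
SLC24A3, first anchor, chr20:19186748-19186779 (+): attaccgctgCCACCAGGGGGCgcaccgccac
SLC24A3, second anchor, chr20:19584075-19584106 (-): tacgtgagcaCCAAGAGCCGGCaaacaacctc
COPS8 to COL6A3, first anchor, chr2:238046768-238046799 (+): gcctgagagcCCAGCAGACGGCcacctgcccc
COPS8 to COL6A3, second anchor, chr2:238201322-238201353 (-): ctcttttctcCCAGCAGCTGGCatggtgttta
BCL10 to ZNHIT6, first anchor, chr1:85773974-85774005 (+): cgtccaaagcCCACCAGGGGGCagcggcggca
BCL10 to ZNHIT6, second anchor, chr1:86148086-86148117 (-): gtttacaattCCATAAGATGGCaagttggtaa
In each the forward site lies in the first anchor and the reverse site in the second. The names are those of genes whose start sites were reached by any pair of the group, and they need not lie at the printed anchors. The second printed anchor of the COPS8 to COL6A3 group ended at 238201670, outside COL6A3, which spans 238232646 to 238322971. The SLC24A3 pair spanned 401 kb with a strength of 9.60 in 42MGBA and 7.84 in 42MGBA 53-1. The pair printed for the COPS8 to COL6A3 group spanned 150.2 kb with strengths of 9.58 and 8.65. That of the BCL10 to ZNHIT6 group spanned 377 kb with 10.2 and 8.31. A match of these letters is a description of the sequence and does not show that CTCF was bound.

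The next 4 sequences are promoters that lay inside anchors of 42MGBA-system pairs, from RefSeq (table of GRCh38.p14) and placed in hg19 by exact match. They run from 250 bases before to 50 bases after the start site, 5′ to 3′ on the gene's strand. Capitals mark the GC box, GGGCGG or its reverse complement CCGCCC, which 45.0% of the 35116 RefSeq promoters held.
COL12A1 promoter, chr6:75915720-75916019 (-): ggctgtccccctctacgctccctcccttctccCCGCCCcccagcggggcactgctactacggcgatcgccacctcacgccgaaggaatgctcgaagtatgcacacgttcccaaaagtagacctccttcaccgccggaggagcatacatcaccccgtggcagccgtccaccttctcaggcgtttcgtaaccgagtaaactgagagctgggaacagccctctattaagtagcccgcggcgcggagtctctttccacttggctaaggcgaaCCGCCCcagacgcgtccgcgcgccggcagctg
EGFR promoter, chr7:55086460-55086759 (+): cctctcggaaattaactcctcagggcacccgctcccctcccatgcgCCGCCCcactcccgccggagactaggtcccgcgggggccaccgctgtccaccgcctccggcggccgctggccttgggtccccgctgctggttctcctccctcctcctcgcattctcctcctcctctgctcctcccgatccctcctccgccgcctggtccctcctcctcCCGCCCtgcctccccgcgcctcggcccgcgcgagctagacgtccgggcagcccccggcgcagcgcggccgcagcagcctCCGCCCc
JAG1 promoter, chr20:10654598-10654897 (-): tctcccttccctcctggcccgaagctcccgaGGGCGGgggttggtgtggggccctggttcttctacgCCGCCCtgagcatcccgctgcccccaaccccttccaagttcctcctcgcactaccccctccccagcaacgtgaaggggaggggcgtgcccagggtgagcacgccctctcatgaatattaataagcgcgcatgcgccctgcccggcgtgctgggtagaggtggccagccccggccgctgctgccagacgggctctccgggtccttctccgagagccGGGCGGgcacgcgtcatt
GDAP2 promoter, chr1:118472195-118472494 (-): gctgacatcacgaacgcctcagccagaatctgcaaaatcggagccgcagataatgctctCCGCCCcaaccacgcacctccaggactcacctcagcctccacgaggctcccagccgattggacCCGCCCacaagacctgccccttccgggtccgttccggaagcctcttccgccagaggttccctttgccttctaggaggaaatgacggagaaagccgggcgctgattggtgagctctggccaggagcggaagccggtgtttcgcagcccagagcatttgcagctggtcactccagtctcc
COL12A1 and GDAP2 held 2 GC boxes each and EGFR and JAG1 held 3 each. None of the 4 held TATAAA on either strand, the letters of a TATA box, against 11.5% of all promoters that did. Anchors of 4, 2, 20 and 12 pairs of the 42MGBA system overlapped the COL12A1, EGFR, JAG1 and GDAP2 windows. These promoters were chosen for printing after their values were seen.

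The 42MGBA-system pairs were of moderate strength. Loop strength is the authors' enhanced contact signal, on a scale set separately in each line, and a contact made in more cells cannot be told apart in it from a closer contact per cell. In 42MGBA the lowest listed strength was 4.49, the 42MGBA-system median 5.33 (quartiles 4.86 and 6.03) and the highest 20.8. In 42MGBA 53-1 the corresponding values were 4.28, 5.15 (4.68 and 5.87) and 16.8. Pairs in all 4 lists had medians of 6.80 and 6.23 in the same lines. The 10000 strongest pairs of 42MGBA held 184 pairs of the 42MGBA system and 9586 in all 4 lists, and for 42MGBA 53-1 these counts were 224 and 9413. The 42MGBA-system pairs were thus rare among the strongest, while their median rank among 300000 was 171060 in 42MGBA and 155599, near the middle, in 42MGBA 53-1.

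Some lay close to the listing threshold. In 42MGBA, 4367 (7.16%) were within 0.1 of the lowest listed strength, and in 42MGBA 53-1, 3921 (6.43%). On the other side of the rule, 13486 pairs of both 42MGBA lists were kept out because H4 alone also listed them, at a median strength there of 4.67, and 1566 of these were within 0.1 of the lowest H4 strength of 4.14. H4 88-1 alone kept out 19370, at a median of 5.04, and 1978 of these were within 0.1 of its lowest strength of 4.44. A pair missing from an H4-system list is known only to be weaker there than that list's lowest strength, not to be without contact.

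**Figure D1:**
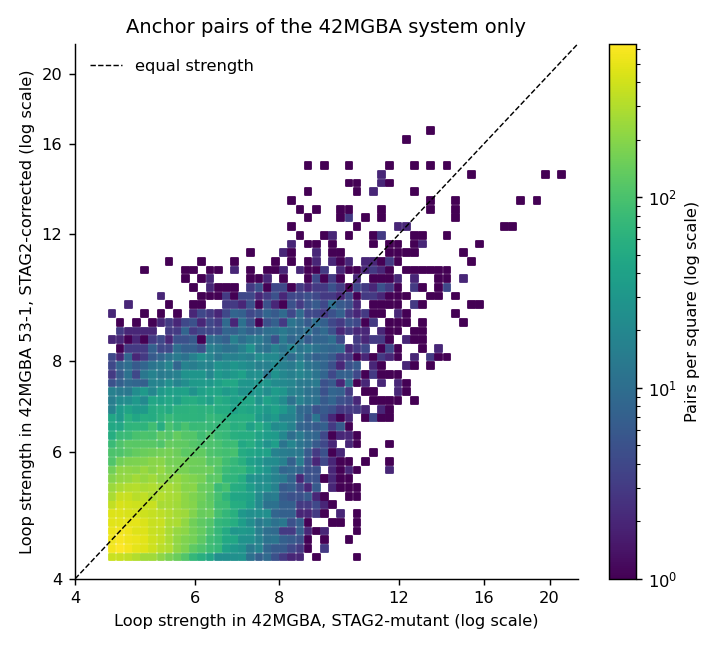
Density of 42MGBA-system pairs by loop strength in 42MGBA (x axis) and in 42MGBA 53-1 (y axis), both in the authors' strength units on log axes. The pairs are densest at low strength, with medians of 5.33 and 5.15 above the listing thresholds of 4.49 and 4.28, and a thin tail reaches 20.8 and 16.8.

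Most 42MGBA-system pairs were neighbours of a pair that an H4-system list held. For 33437 (54.8%) both anchors were within 10 kb of those of a listed H4-system pair, for 8480 (13.9%) the distance was 10 to 25 kb, for 10026 (16.4%) 25 to 100 kb, and for 9026 (14.8%) over 100 kb. The distance here is the larger of the 2 anchor-midpoint distances to the nearest pair of either H4-system list. The 9026 far pairs included the strongest 42MGBA-system pair, had a median size of 203 kb, and were over 1 Mb long in 5.10% of cases, against 2.40% of all 42MGBA-system pairs.

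Neighbouring pairs were joined into a group where both anchors lay within 10 kb of those of another, which gave 6040 groups. Of these, 1653 (27.4%) were single pairs, while 1424 groups of at least 10 held 47081 pairs (77.2%). The 72 groups of at least 100 pairs held 13507 (22.2%). The pairs of a group share their anchors' surroundings and are not separate observations of contact.

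The largest group, of 519 pairs, joined the region of TMX1 on chromosome 14, which encodes a thioredoxin-related membrane protein, to FRMD6, which encodes a FERM-domain protein of the Hippo pathway. Its strengths ran from 4.49 through a median of 5.79 to 10.5 in 42MGBA and from 4.28 through 5.799 to 11.02 in 42MGBA 53-1. The group was about equal in the 2 lines, with 269 of its pairs stronger in 42MGBA 53-1. The next, of 489 pairs on chromosome 15, lay within and beside FSIP1 and THBS1, which encodes the matrix protein thrombospondin-1, with medians of 5.58 and 5.84. A group of 443 pairs on chromosome 1 ran from TSHB and TSPAN2, at medians of 6.44 and 5.59, and only 73 of its pairs were stronger in 42MGBA 53-1.

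The other 7 of the 10 largest groups held 290 to 422 pairs. On chromosome 1 they reached PTGFR, a prostaglandin receptor gene, and its interferon-induced neighbours IFI44 and IFI44L (422 pairs), BCAR3 (399), ABCD3, F3 and SLC44A3 (325), CD2 and PTGFRN (308), and BCL10, CCN1 and DDAH1 (290). F3 encodes tissue factor and CCN1 a matricellular protein. The remaining 2, both on chromosome 2, joined COPS8 to COL6A3 (372) and GULP1 to COL3A1 (298), with COL6A3 and COL3A1 encoding chains of type VI and type III collagen. The 10 together held 3865 pairs, 6.34% of the 42MGBA-system pairs. Each of the 10 held pairs with an H4-system pair close by, 4.13 to 4.60 kb away at the nearest.

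Of the 10 groups with the strongest single pair, 5 had no H4-system pair within 25 kb of any of their pairs. The strongest 42MGBA-system pair joined chr20:19186785-19191351, upstream of SLC24A3, to chr20:19562761-19567725, which overlaps an exon of the same gene. SLC24A3 encodes a potassium-dependent sodium/calcium exchanger. This pair, 376 kb long, had a strength of 20.8 in 42MGBA, where it ranked 287 of 300000, and 14.6 in 42MGBA 53-1, where it ranked 1534. Its group held 214 pairs, with medians of 7.08 and 5.73, and 6 of the 214 were stronger in 42MGBA 53-1. No H4-system pair was listed within 445 kb of any of the 214.

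Another strong and isolated group lay at SLC30A7, a zinc transporter gene of chromosome 1. It joined chr1:101435679-101440587 to chr1:102950317-102954990 over 1515 kb, with strengths of 13.2 and 16.8 and ranks of 4318 and 660. All 33 pairs of the group were stronger in 42MGBA 53-1, and the nearest H4-system pair was 1121 kb away. A second group from the same start sites, of 37 pairs up to 1659 kb long, reached 13.2 and 14.8, and 32 of the 37 were stronger in 42MGBA 53-1.

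The other strong groups reached genes of varied function. COL6A1 to COL6A2, neighbouring genes for type VI collagen chains on chromosome 21, formed 189 pairs with a strongest pair of 14.1 in 42MGBA and 14.9 in 42MGBA 53-1. CYP1B1, a cytochrome P450 gene, and RMDN2 joined ATL2 in 215 pairs that lay at least 213 kb from any H4-system pair, with a strongest pair of 14.4 and 13.4. MAN1A2, a Golgi mannosidase gene, and TENT5C joined GDAP2 and WDR3 in 281 pairs, with 15.2 and 14.4 at the strongest. SYCP1, which encodes a protein of the meiotic synaptonemal complex, carried 135 pairs with 15.0 and 11.4 at the strongest. Between these groups the 42MGBA 53-1 value was at times above and at times below that of 42MGBA.

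COL1A2, which encodes a chain of type I collagen, had a strong group of short pairs in and beside the gene. Its 52 pairs on chromosome 7 spanned 4.52 to 47.7 kb and had strengths of 5.77 to 15.7 (median 10.8) in 42MGBA and 4.29 to 10.4 (median 6.94) in 42MGBA 53-1. Each of the 52 was stronger in 42MGBA. The H4-system pair closest to any of the 52 was 68.1 kb away. Of all 237 listed pairs at COL1A2 start sites, however, 126 were in an H4-system list. Some 42MGBA-system pairs there came within 4.65 kb of an H4-system pair. The other 2 of the 10 strongest groups had no protein-coding start site at either end. One on chromosome 4, with first anchors from 10139905 to 10198464, held 60 pairs, with 14.6 and 12.9 at the strongest, and one on chromosome 7, with first anchors from 80835697 to 80906873, held 144 pairs, with 11.3 and 14.1.

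Set side by side within the 42MGBA system, the pairs were slightly weaker in 42MGBA 53-1 than in 42MGBA. The log2 ratio of strength in 42MGBA 53-1 to that in 42MGBA had a median of −0.05 (quartiles −0.20 and 0.10) over the 42MGBA-system pairs, of which 24391 (40.0%) were above 0. Over all 204138 pairs of both 42MGBA lists the median was −0.09, with 35.5% above 0. The 2 lists are not on 1 scale, and relative to the median of all pairs of both lists the 42MGBA-system pairs were at 0.03, so that the direction turned with the centring. Their median was above that of all pairs of both lists on 21 of 23 chromosomes.

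The ratio differed by size. The median was −0.01 for 42MGBA-system pairs under 100 kb, −0.03 from 100 to 250 kb, −0.08 from 250 to 500 kb, −0.11 from 500 kb to 1 Mb and −0.09 over 1 Mb. In the same bins all pairs of both lists gave −0.00470, −0.05, −0.10, −0.16 and −0.16. In both sets the pairs over 250 kb had lower ratios than the shorter ones.

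Groups of at least 10 pairs had median ratios from −0.88 to 0.78, and 512 of the 1424 were above 0. These extremes were chosen by the ratio and are given without a test. The lowest group, 12 pairs from the promoter of JAG1, a Notch ligand gene whose promoter is printed above, had strengths of 7.30 to 11.8 in 42MGBA and 4.29 to 6.10 in 42MGBA 53-1. The 2 ranges did not overlap. Others at this end were 19 pairs within COL5A2, a fibrillar collagen gene, 32 pairs that reached PLPP3, a lipid phosphatase gene, and 10 pairs between DOCK5 and CDCA2, with medians of −0.67, −0.67 and −0.66.

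At the other end, 11 pairs within RAD51B, a homologous recombination gene, had 4.49 to 4.94 in 42MGBA and 6.54 to 9.54 in 42MGBA 53-1, a median ratio of 0.78. The next were 14 pairs from SSTR4 and THBD, the thrombomodulin gene, to NXT1 (0.59), 10 pairs on chromosome 7 with first anchors from 46874131 to 46903423 and no start site (0.59), 16 pairs that reached IRF1, an interferon-regulated transcription factor gene (0.53), and 11 pairs at PID1 (0.51). In each of these 5 groups every pair was stronger in 42MGBA 53-1.

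A z-score ranked the loops that differed most between the 2 lines. The 100000 strongest loops of both lists were merged. Merging and cutoff followed the published methods, while the regression and the strength given to a loop absent from a list were set here, so these calls can differ from published ones. Strength in 42MGBA 53-1 was regressed on that in 42MGBA through the origin, and a residual past the 0.05 cutoff of a two-sided normal z-score was called. Of 131211 merged loops, 2.45% were called specific to 42MGBA and 1.61% specific to 42MGBA 53-1. Of the 21426 scored 42MGBA-system pairs, 141 (0.658%) in 46 groups were called specific to 42MGBA and 318 (1.48%) in 98 groups specific to 42MGBA 53-1. Among the merged loops in both lists, as the 42MGBA-system pairs are by rule, the shares were 2.10% and 1.57%. The share called for 42MGBA 53-1 was near that of all loops, and the share called for 42MGBA was lower. With an intercept in the regression both were lower, 0.434% against 1.73% of all merged loops for 42MGBA and 1.13% against 2.58% for 42MGBA 53-1. The z-score rests on the absolute residual, and the 42MGBA-system pairs were weaker than all pairs of both lists, with medians in 42MGBA of 5.33 and 6.03. The part of their strength in the lower share was not tested. With a z-score of the log2 ratio the share called for 42MGBA was 0.644%, against 2.25% of all merged loops, which include loops absent from 1 list.

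The groups with the most called pairs are named after their values were seen. COL1A2 held 19 of those called for 42MGBA, SLC24A3 14, PLPP3 8, and JAG1 and a group of CDC7, BRDT and TGFBR3 7 each. Of those called for 42MGBA 53-1, a group on chromosome 15 with first anchors from 38989475 to 39041362 and no start site held 27 of its 101 pairs, the chromosome 7 group of 144 pairs held 18, the genes of the interleukin-1 receptors IL1R2 and IL1R1 held 10 of 60, SLC30A7 9 of 33, a chromosome 1 group with first anchors from 101646342 to 101666168 and no start site 9 of 17, and COL12A1 8 of 260.

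The 42MGBA-system pairs were shorter than H4-system pairs and pairs in all 4 lists. Their median size was 252 kb (quartiles 142 and 406 kb, range 4.18 to 1992 kb), against 373 kb for H4-system pairs and 305 kb for pairs in all 4 lists. Over all listed pairs the median was 301 kb. Pairs under 100 kb made up 14.5% (8845), against 4.35% and 4.64% in those classes and 10.1% of all listed pairs. The 42MGBA-system median was the smaller on 21 of 23 chromosomes against the H4 system (mean difference 120.3 ± 118 kb, SD over chromosomes) and likewise on 21 of 23 against pairs in all 4 lists (69.1 ± 76.4 kb). Chromosomes of 1 line share its library, and their spread is not replicate error.

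**Figure D2:**
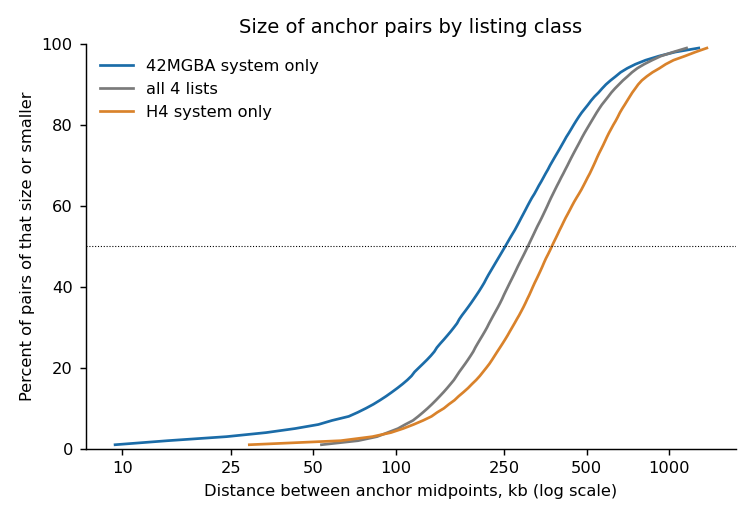
Cumulative share of pairs (percent, y axis) up to each size (kb, log axis) for 42MGBA-system pairs, H4-system pairs and pairs in all 4 lists. The curve of the 42MGBA system lies to the left, with 14.5% of its pairs under 100 kb against 4.35% and 4.64%.

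A larger share of the 42MGBA-system pairs had both anchors at a single gene. An inner pair is one whose anchors both overlapped the body of 1 protein-coding gene, so an anchor could reach past the gene's ends. Of the 42MGBA-system pairs 9881 (16.2%) were inner pairs, against 5.56% of H4-system pairs, 6.15% of pairs in all 4 lists and 10.6% of all listed pairs. This count was made, and the genes named from it were chosen, after values of these pairs were seen. Under 100 kb the shares were 45.3%, 34.6% and 25.2% for the 3 classes in that order, from 100 to 250 kb 17.6%, 7.39% and 8.88%, and from 250 to 500 kb 8.58%, 5.11% and 4.60%. Over all listed pairs the shares in these bins were 40.6%, 12.9% and 6.17%, nearer to those of the 42MGBA system. The share of the 42MGBA system was the highest of the 3 in every size bin, up to the bin over 1 Mb with 1.44%, 0.710% and 0%.

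**Figure D3:**
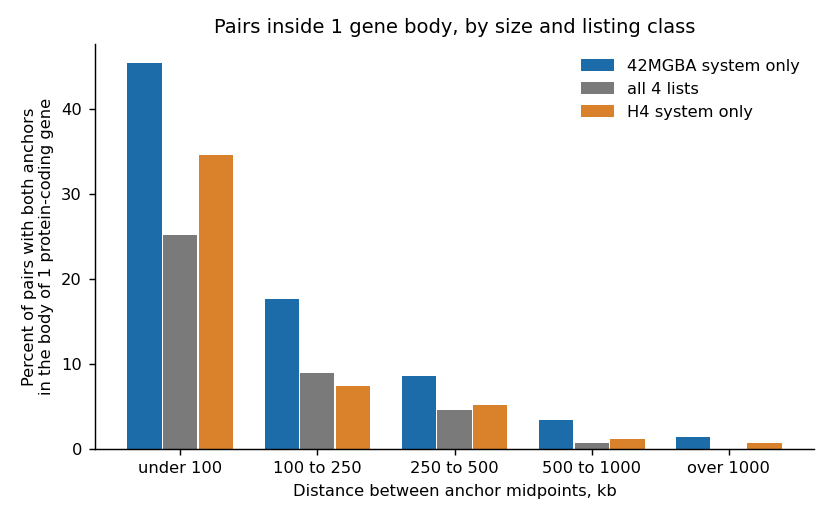
Percent of pairs with both anchors overlapping the body of 1 protein-coding gene (y axis) by size bin (kb, x axis) for the 3 classes. The 42MGBA system is highest in each bin, from 45.3% under 100 kb to 1.44% over 1 Mb.

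Of 1981 genes with a listed inner pair, 577 (29.1%) held an inner pair of the 42MGBA system, and 248 of these held no inner pair of an H4-system list. FSIP1 held 481 of its 650 listed inner pairs, with strengths of 4.496 to 9.55 (median 5.58) in 42MGBA and 4.28 to 9.91 (median 5.83) in 42MGBA 53-1. AHR, the aryl hydrocarbon receptor gene, held 311 of 672, with medians of 5.44 and 5.71. COL12A1, a gene for a fibril-associated collagen, held 259 of 302, and 5 of the 302 were in an H4-system list. Its strengths were 4.58 to 8.34 (median 5.95) in 42MGBA and 4.57 to 11.3 (median 6.46) in 42MGBA 53-1, and 198 of the 259 were stronger in the corrected line.

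Other genes had no inner pair in an H4-system list. VCL, which encodes the focal adhesion protein vinculin, held 103 of 139 inner pairs, with medians of 5.91 and 5.50. CRIM1, a gene for a membrane protein that binds BMPs, held 73 of 102, at 5.798 and 5.51. WASHC4, a gene of the WASH complex of endosomal actin, held 66 of 70, at 6.73 and 6.31. COL5A2 held 56 of 218, at 6.02 and 4.71, and GLI3, a Hedgehog pathway transcription factor gene, 57 of 111, at 5.42 and 5.48. The medians of the 2 lines were within 1 unit of each other in these 5 genes apart from COL5A2.

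A protein-coding start site lay within 3 kb of an anchor in 27215 pairs (44.6%), near the 44.5% of all listed pairs, the 42.6% of H4-system pairs and the 47.1% of pairs in all 4 lists. Under 100 kb the share was lower, 51.9% against 67.2% and 65.5%. Of 10025 genes with a listed pair at a start site, 3201 (31.9%) had a 42MGBA-system pair, with a median of 4 each, and 514 (5.13%) had such pairs while no H4-system list held any pair at their start sites. Genes whose start sites share an anchor share its pairs.

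FSIP1 had the most pairs of any gene at its start sites, 256 of 467 listed. GDAP2 followed with 208 of 285, while 23 of the 285 were in an H4-system list. Its strengths in 42MGBA and 42MGBA 53-1 had medians of 5.93 and 6.35. COL3A1 had 208 of 517, but 165 of the 517 were in an H4-system list. Its medians were 6.22 and 5.22, and 17 of the 208 pairs were stronger in 42MGBA 53-1. COL12A1 was the opposite, with 207 of 529 pairs at medians of 5.91 and 6.37 and 154 of the 207 stronger in 42MGBA 53-1, and 218 of the 529 were in an H4-system list. The others of the 10 genes with the most pairs were BCAR3 (206), GULP1 (184), FRMD6 (184), NPR3, a natriuretic peptide receptor gene (178), APPL2 (158) and SULF2, which encodes a heparan sulfate endosulfatase (150).

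Among genes with no H4-system pair at a start site, ARHGAP12, which encodes a GTPase-activating protein, had the most, 103 of 150 listed pairs. Its strongest pair joined chromosome 10 loci 1055 kb apart with strengths of 11.6 in 42MGBA and 11.4 in 42MGBA 53-1. SLC24A3 had 86 of 114. FIP1L1, an mRNA processing gene, had 79 of 215, at medians of 5.91 and 4.93, and RMDN2 had 65 of 105. C12orf75 (61), TTLL7 (44), IVD, a leucine catabolism gene (37), and HMCN1, which encodes the matrix protein hemicentin-1 (33), were also among the 10 with the most. An H4-system pair could still lie close to these start-site pairs, 4.45 kb away at the nearest for HMCN1, 4.62 for TTLL7, 14.1 for C12orf75 and 19.3 for RMDN2. For FIP1L1 the nearest was 47.8 kb away, for IVD 121, for ARHGAP12 140 and for SLC24A3 464.

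**Figure D4:**
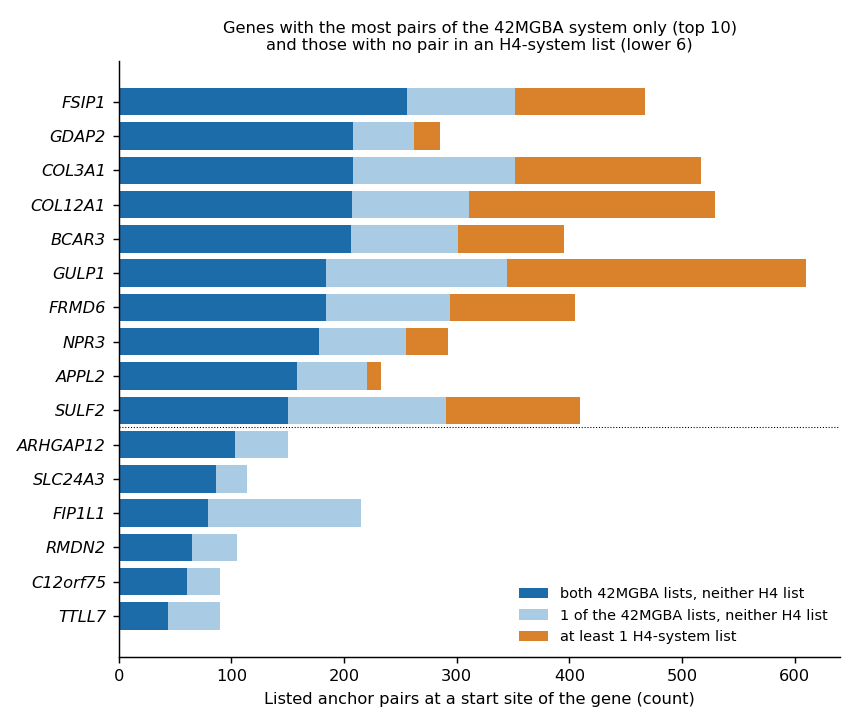
Number of listed anchor pairs (x axis) at the start sites of 16 protein-coding genes, the 10 with the most 42MGBA-system pairs and the 6 with the most among genes without an H4-system pair. Bars are split into 42MGBA-system pairs, pairs of 1 of the 42MGBA lists only, and pairs in any H4-system list, and the last part is 0 for the lower 6 genes.

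The extracellular matrix genes had a larger share of genes with a 42MGBA-system pair than any other of the 23 gene lists examined. A 42MGBA-system pair was present at 35 of the 50 matrix and matrix-remodelling genes with a listed pair (70.0%), against 31.9% of all genes. Because matrix genes also had more listed pairs, a median of 52 per gene against 16, the share of gene-pair hits is given too, which counts a listed pair once for each gene at its anchors. Of these hits, 25.9% at matrix genes were of the 42MGBA system, against 10.2% at all genes. The 1384 matrix hits of the 42MGBA system lay largely at a few genes, with 208 at COL3A1, 207 at COL12A1, 145 at THBS1 and 111 at COL6A1. Other matrix genes were below the share of all genes, among them FN1 with 2 of 194 listed pairs, LAMC1 with 3 of 110 and POSTN with 2 of 63. The median log2 ratio over the 1342 42MGBA-system pairs at matrix genes was 0.00. Of the 761 scored, 19 (2.497%) were called specific to 42MGBA, as many as COL1A2 alone held, and 15 (1.97%) specific to 42MGBA 53-1, against 0.658% and 1.48% of all scored 42MGBA-system pairs and 2.45% and 1.61% of all merged loops.

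COL3A1, COL12A1, THBS1 and COL6A1 had the most pairs in that list. THBS1 had 145 of 410, with strengths of 5.36 (median) in 42MGBA and 6.24 in 42MGBA 53-1, and 117 of the 145 were stronger in the corrected line. COL6A1 had 111 of 179, of which 1 was in an H4-system list, with medians of 5.51 and 6.03. In 3 of these 4 genes the median was higher in 42MGBA 53-1, and in COL3A1 it was lower.

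Mesenchymal GBM markers were next, with a pair at 9 of 15 genes (60.0%). They too had more listed pairs, a median of 44 per gene against 16 for all genes. Of their gene-pair hits 18.0% were of the 42MGBA system, against 10.2% at all genes. TNC is in the matrix list as well, so the lists overlap. VIM, which encodes the intermediate filament protein vimentin, had 62 of 152 listed pairs, at medians of 6.03 and 7.20, and 53 of the 62 were stronger in 42MGBA 53-1. PLAU, the urokinase gene, had 30 of 52, of which 2 were in an H4-system list, at 5.15 and 5.02. CD44, a hyaluronan receptor gene, had 23 of 233, at 6.10 and 4.89, and TNC, the tenascin-C gene, 20 of 165, at 5.20 and 6.002. The 4 genes thus differed in which line had the higher median.

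Among AP-1, CEBP and STAT regulators 12 of 24 genes (50%) had a pair, led by the transcription factor genes JUN (51 of 206) and RUNX1 (49 of 243), FOSL2 (31) and WWTR1 (31), a Hippo effector gene also in that list. Of the TGF-beta and BMP pathway 15 of 33 genes (45.5%) had one. INHBA, the gene for an activin subunit, had 59 of 645, TGFB3 43, FST, an activin-binding protein gene, 37 and SMAD3 30. Cytokines and chemokines had 10 of 22 (45.5%), with 21 pairs at CXCL12. Of the gene-pair hits of these 3 lists, 16.4%, 11.5% and 7.63% were of the 42MGBA system, against the 10.2% of all genes.

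Growth factor and receptor genes were near the share of all genes. Of FGF, PDGF, VEGF and neurotrophin ligands 9 of 26 (34.6%) had a pair, with 10.5% of gene-pair hits, against 10.2% at all genes. FGF7 had 56 of 100, of which 4 were in an H4-system list, and its strongest pair had 12.7 in 42MGBA and 9.67 in 42MGBA 53-1. GDNF, which encodes a glial neurotrophic factor, had 31 of 76, at medians of 6.49 and 4.82. Receptor tyrosine kinases had 10 of 29 (34.5%), but a lower share of hits, 7.15%. EGFR, the receptor gene most often amplified in GBM, had 33 of 57 with none in an H4-system list. Their strengths were 4.51 to 6.10 (median 5.33) in 42MGBA and 4.30 to 5.46 (median 5.05) in 42MGBA 53-1. The nearest H4-system pair to any of the 33 was 4.82 kb away. PDGFRA had 16 of 156, at medians of 8.04 and 4.92, and none of the 16 was stronger in 42MGBA 53-1. The EGFR pairs thus stayed at or below 6.10 in both lines, while those of PDGFRA were stronger in 42MGBA.

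In the WNT, axon guidance, GBM oncogene and cohesin lists the share of genes was between 33.3% and 41.9%. WNT ligands and receptors had 9 of 25 (36%) and 14.8% of gene-pair hits, and WNT5A alone had 124 of 316 listed pairs, at medians of 5.56 and 5.23. Ephrins, semaphorins, netrins, slits and their receptors had 18 of 54 (33.3%) and 9.52% of hits, with 98 of 177 at the axon guidance gene SEMA5A and 32 of 98 at ROBO1. GBM oncogenes and tumor suppressors had 10 of 27 (37.0%) and 14.4% of hits, with 72 pairs at GLI3 and 48 at JAG1. Cohesin, CTCF and Polycomb genes had 13 of 31 (41.9%) and 10.5% of hits, with 22 of 47 at the Polycomb gene PHC2 and none of the 47 in an H4-system list. STAG2 itself had none.

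Developmental regulators differed by family. HOX genes had a 42MGBA-system pair at 17 of 39 (43.6%), but these made up 3.95% of their gene-pair hits, against the 10.2% of all genes, and HOXB3, the first of them, had 67 of 642 with 509 in an H4-system list. Other developmental transcription factors had 24 of 79 (30.4%), and 10.6% of their hits. SNAI2, a regulator of the epithelial to mesenchymal transition, had 73 of 419, and the forebrain homeobox genes DLX2 and DLX1 had 50 and 48. SOX genes had 2 of 8 (25%, and 1.80% of hits), neural basic helix-loop-helix factors 7 of 17 (41.2%, and 11.2%) and cadherins outside the chromosome 5 clusters 2 of 17 (11.8%, and 1.47%).

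Marker lists of the cell types of normal brain differed from one another. Astrocyte markers had 1 of 8 genes (12.5%), the glutamate transporter gene SLC1A2, with 2 of 563 listed pairs where 543 were in an H4-system list. Microglia and myeloid markers had 1 of 8 (12.5%), oligodendrocyte lineage markers 2 of 6 (33.3%), neuronal markers 2 of 5 (40.0%) and endothelial and mural markers 4 of 7 (57.1%). Of the gene-pair hits 0.229%, 3.08%, 6.14%, 19.0% and 8.59% were of the 42MGBA system in these lists in the same order, and SNAP25 held most of the neuronal ones. SNAP25, a synaptic vesicle fusion gene, had 26 of 40 with none in an H4-system list, and ACTA2, the smooth muscle actin gene, 14 of 49. Ion channels had 6 of 24 (25%), with 44 at KCNMA1, and glutamate and GABA receptors and transporters 4 of 11 (36.4%), with 12 at GRIK4. Their gene-pair hits were of the 42MGBA system in 3.36% and 3.57%, below the 10.2% at all genes.

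Convergent CTCF core motifs, forward in the first anchor and reverse in the second, were found in 621 of the 42MGBA-system pairs (1.02%), against 1.45% of H4-system pairs, 2.26% of pairs in all 4 lists and 1.51% of all listed pairs. Divergent motifs were found in 324. The ratio of convergent to divergent pairs was 1.92, against 2.15 in the H4 system and 3.44 in pairs of all 4 lists. With the strongest pair of each group alone, the convergent share of the 42MGBA system was 2.04% and the ratio 3.15 (123 to 39). The other classes were not reduced to 1 pair per group, so these values have no counterpart there. Under 100 kb the convergent shares were 1.16%, 2.46% and 3.71%, and from 100 to 250 kb 0.970%, 1.82% and 2.59%. The 42MGBA-system share was the lowest of the 3 in each of the 4 size bins under 1 Mb, while over 1 Mb the shares were 1.504%, 1.01% and 1.95%. The GC content of the anchors had a median of 41.6%, against 41.9% and 42.6%, and CpG dinucleotides were at 9.28 per kb, against 9.86 and 10.5.

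The share of 42MGBA-system pairs among listed pairs ranged from 2.57% on chromosome X to 18.8% on chromosome 14. On chromosome 14 it was 4464 of 23746, where the lists of 42MGBA and 42MGBA 53-1 held 15528 and 18393 pairs and those of H4 and H4 88-1 held 8878 and 8928. Chromosome 15 had 18.7%, with 14729 and 18354 against 9524 and 10370, and chromosome 20 17.6%, with 15512 and 13459 against 7874 and 8545. The lists of the 42MGBA system thus held more pairs in all on the chromosomes where its pairs made up the largest share, and their part in that share was not tested.

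Where the share was lowest, the lists of the H4 system held more pairs. On chromosome X 100 of 3893 pairs were of the 42MGBA system, and the lists held 834 and 775 pairs against 2384 and 2615. Chromosome 17 had 4.12%, with 7997 and 8788 against 16179 and 16513, and there the 42MGBA-system median size was 73.3 kb. Chromosome 4 had 4.99%, with 9809 and 8761 against 14438 and 13634. The share of the 42MGBA system was above that of the H4 system on 10 of 23 chromosomes.

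**Figure D5:**
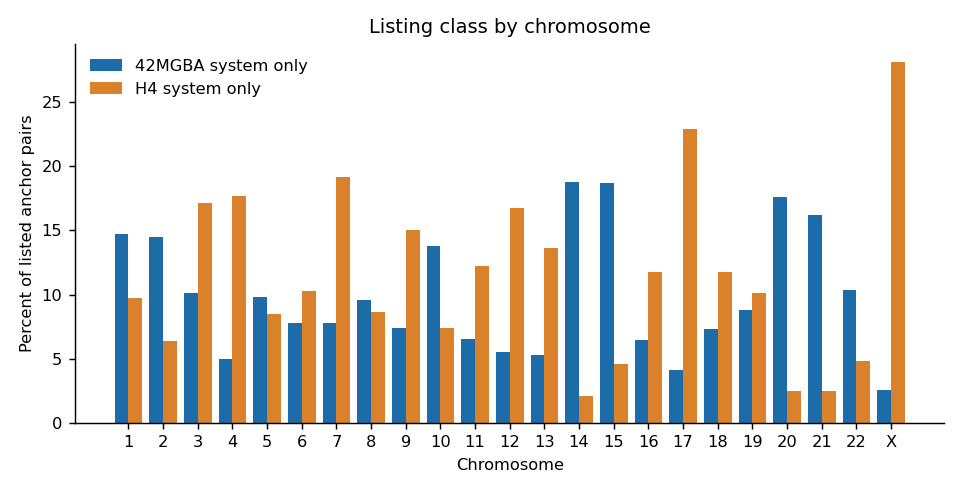
Percent of the listed pairs of each chromosome (x axis) that belonged to the 42MGBA system or to the H4 system (y axis). Chromosomes 14, 15 and 20 have the highest shares of the 42MGBA system, 18.8%, 18.7% and 17.6%, and X the lowest, 2.57%.

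A small number of anchors took part in many pairs. Of the 31647 anchors, 10285 (32.5%) were in 1 pair, and 606 were in 20 or more. The anchor with the most, chr2:189388481-189393490 in an intron of GULP1, an engulfment adaptor gene, was in 68 of its 166 listed pairs, with strengths of 4.69 to 9.68 in 42MGBA and 4.34 to 9.39 in 42MGBA 53-1. Adjacent anchors at chr9:3734956-3739835 and chr9:3739836-3744623, outside any protein-coding gene, had 67 of 109 and 63 of 104. Another adjacent couple, chr15:39003740-39008404 and chr15:38998874-39003739, had 67 of 141 and 63 of 170, and its strengths reached 14.2 and 15.1 in 42MGBA 53-1 against 10.5 and 9.98 in 42MGBA. Of these 5 anchors, 1 held a CTCF core motif, and only that in GULP1 was near a start site.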

How the data were processed

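Hi-C lists of 4 GBM cell lines were analysed (8 samples, 2 replicates per line pooled by the authors into 1 list). The 12 RNA-seq samples were not used here. Per the labels and the study's methods, the authors mapped Hi-C reads with Bowtie to hg19, corrected bias with HiCorr, enhanced loops with DeepLoop and deposited the 300000 strongest anchor pairs of each line as a signal, loop strength, with a distance column that was not used as a measurement. No column was left unmapped, and read depth was not used here.

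Pairs were matched on identical anchors. The members and gene lists were chosen with earlier results of these data known. The named genes and groups are the 10 largest groups, the 10 with the strongest pair, the 10 genes with the most pairs, the 10 with the most among those without an H4-system pair, up to 4 per gene list, the 5 lowest and 5 highest group ratios, 3 chromosomes at each end and 5 anchors. Some of these are not reported here. Others are said to have been chosen after their values were seen. Genes were from GENCODE release 44 on hg19. In the z-score a loop absent from 1 list took that list's lowest strength. The log2 ratio is of strengths, without a pseudocount. Calculations used Python 3.11.15, numpy 2.4.6, pandas 2.3.3, scipy 1.17.1 and pysam 0.24.0, and the counting and z-score steps were tested on simulated data. Of 29 genes looked up for a promoter sequence, 21 matched. Alternatives changed 1 choice each: list depth, distance to H4-system pairs, 1 pair per group, chromosomes left out, the regression, motif and start-site window.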

Additional observations from a re-analysis of the deposited data

How the results depend on the processing

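Of 34 recomputed values, 9 stayed close, 24 moved and 1 turned its direction. No paired analysis was possible because each list pools both replicates and has no replicate column, and for the same reason no replicate could be left out. The count of 42MGBA-system pairs was 7288 within the 100000 and 28747 within the 200000 strongest of both lists, 27532 without an H4-system pair within 10 kb, 19052 within 25 kb, and 6040 as groups. The median log2 ratio was 0.0322 when centred on all pairs of both lists, −0.0625 with 1 pair per group, −0.0763 within the 100000 strongest, −0.0427 without an H4-system pair within 10 kb and −0.0478 without chromosomes 6 and 11. Pairs specific to 42MGBA numbered 93 with an intercept, 442 and 925 with 200000 and 300000 loops merged, and 252 within size bins. Pairs specific to 42MGBA 53-1 numbered 926 and 1859 with 200000 and 300000. With 200000 these were 0.873% and 1.83% of 50653 scored, against 2.94% and 2.02% of all merged loops. With 300000 they were 1.52% and 3.05% of 60969, against 3.46% and 2.55%. Within size bins the shares were 1.18% and 1.63% of 21426, against 2.53% and 1.86%. With the intercept, 2267 of all loops were specific to 42MGBA and 3383 to 42MGBA 53-1, against 3212 and 2114 through the origin, and the 42MGBA-system pairs gave 93 and 243. Median size was 241 kb with 1 pair per group, 276 kb within the 100000 strongest and 223 kb without an H4-system pair within 10 kb. The share at a start site was 26.9% inside the anchor, 65.5% within 10 kb and 61.1% with all genes. The convergent share was 0.0131% with the stricter motif, CCANNAG followed directly by NGGGCNC, and 2.04% with 1 pair per group. Within the 100000 strongest of both lists, 692 genes had a pair. With 1 list per line and no read counts in it, no difference could be set against replicate error.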

Other observations

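Some groups lay far from any H4-system pair without being among the largest or strongest, and are named after their values were seen. A group at ARHGAP12 on chromosome 10 had 168 pairs, 982 to 1108 kb long, at least 1156 kb from any H4-system pair. Its medians were 6.26 in 42MGBA and 6.07 in 42MGBA 53-1. A group at FBN1, which encodes the microfibril protein fibrillin-1, had 131 pairs at least 91.4 kb away, with medians of 5.69 and 5.81. Of all 287 listed pairs at FBN1 start sites, however, 18 were in an H4-system list. Some 42MGBA-system pairs there came within 9.89 kb of an H4-system pair. GLIS3, a zinc finger transcription factor gene, had 128 pairs, 284 to 438 kb long, with medians of 5.66 and 6.25. Of the 6040 groups, 1631 with 13387 pairs (21.96%) had no pair within 25 kb of an H4-system pair.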
